A study of Mus musculus with 20 samples.

Results

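Insulin and insulin-like growth factors reach cells through a small set of receptors, binding proteins and docking proteins, and 10 genes of that system were followed across age in the mouse corneal epithelium. The genes were taken by symbol from the table of the 20 libraries: the binding protein genes *Igfbp2*, *Igfbp3* and *Igfbp5*, the receptor genes *Igf1r*, *Insr* and *Igf2r*, the substrate genes *Irs1* and *Irs2*, the adaptor gene *Grb10* and the transcription factor gene *Foxo1*. All 10 were found among the 24552 genes of the table. Corneal epithelium was collected by debridement, a blunt scrape of the corneal surface, from naïve wild-type female C57BL/6J mice, and each library held the epithelium of both eyes of 1 animal. There were 5 libraries in each of 4 age groups, labelled 2 to 3 (the young group), 12 to 13, 18 to 19 and 24 to 25 months, and named 2-month, 12-month, 18-month and 24-month here. No group carried a treatment or an engineered allele, and no wound had been made before collection. Per the study's methods, its mice were bought from Jackson Laboratories, aged in house or obtained from the National Institute of Aging. Which source each library came from is not given in the sources used here, so source and age cannot be told apart.

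In this system, insulin and the insulin-like growth factors bind receptor tyrosine kinases at the cell surface. The activated receptor phosphorylates the insulin receptor substrate proteins, which dock phosphatidylinositol 3-kinase and start the AKT cascade. AKT keeps FoxO transcription factors out of the nucleus, and when the signal falls FoxO proteins enter the nucleus and switch on genes of cell cycle arrest, stress defence and, in many tissues, the receptor and *Irs2* themselves. The secreted IGF binding proteins hold the growth factors in the extracellular space and either shield them or bring them to their receptor. In the cornea, insulin and insulin-like growth factor are known to promote epithelial migration and wound closure.

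The members that passed the test, both lower with age, were the binding protein genes *Igfbp2* and *Igfbp5*. *Igfbp2* fell 3.24-fold from the young group to the 24-month group, and *Igfbp5* fell 1.61-fold by 12 months and 1.49-fold at 24 months. *Igfbp2* did not pass at 12 or 18 months, and *Igfbp5* did not pass at 18 months. Neither gene passed at any age when genes of low expression were also tested. The receptor genes *Igf1r*, *Insr* and *Igf2r* and the transcription factor gene *Foxo1* passed the test at no age. *Irs2* was 1.87-fold lower at 24 months, with every 24-month library below every young one, but its adjusted p-value of 0.111 (limma) did not pass. *Irs1*, *Grb10* and *Igfbp3* were counted by so few reads that they could not be tested with the other genes.

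*Igfbp2* and *Igfbp5* are neighbours on mouse chromosome 1. In GENCODE annotation of GRCm38, *Igfbp2* lies on the forward strand at chr1:72824503-72852474 and *Igfbp5* on the reverse strand at chr1:72857932-72874884. The genes point toward each other, with 5457 bases and 0 annotated genes between their ends. *Irs2* lies on the reverse strand at chr8:10984681-11008458. The promoter windows of these 3 genes are printed because their 24-month libraries all lay below the young ones. Each window runs 5′ to 3′ along the gene from 250 bases before the annotated start to 50 bases after it, taken from RefSeq on GRCm38.p6. Capitals mark matches to 4 motifs on either strand. The hypoxia response element has the core ACGTG, which also lies in the E-box CACGTG. FoxO proteins bind the motif GTAAACA. Insulin response sequences hold the core CAAAACA. The fourth motif is the GC box, GGGCGG. The *Igfbp2* window is that of the first of 2 annotated starts, chr1:72824230-72824529, the *Igfbp5* window is chr1:72874816-72875115 and the *Irs2* window is chr8:11008880-11009179.
Igfbp2: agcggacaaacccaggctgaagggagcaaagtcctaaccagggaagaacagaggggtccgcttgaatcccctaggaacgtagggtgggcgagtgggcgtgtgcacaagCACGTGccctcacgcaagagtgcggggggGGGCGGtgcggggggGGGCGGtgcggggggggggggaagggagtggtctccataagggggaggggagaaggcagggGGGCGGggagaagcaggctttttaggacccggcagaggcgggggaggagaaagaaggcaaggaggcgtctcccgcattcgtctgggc
Igfbp5: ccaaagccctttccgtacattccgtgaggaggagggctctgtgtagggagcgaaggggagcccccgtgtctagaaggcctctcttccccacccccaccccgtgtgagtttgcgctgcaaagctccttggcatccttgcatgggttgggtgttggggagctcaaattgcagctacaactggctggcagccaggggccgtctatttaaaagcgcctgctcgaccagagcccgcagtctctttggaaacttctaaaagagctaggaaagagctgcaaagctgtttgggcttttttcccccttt
Irs2: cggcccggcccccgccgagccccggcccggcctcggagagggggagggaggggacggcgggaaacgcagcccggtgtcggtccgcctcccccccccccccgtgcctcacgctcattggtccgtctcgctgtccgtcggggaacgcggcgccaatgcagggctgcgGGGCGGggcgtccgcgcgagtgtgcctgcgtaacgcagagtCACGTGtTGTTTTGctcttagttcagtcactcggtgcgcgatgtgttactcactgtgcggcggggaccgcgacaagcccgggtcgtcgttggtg

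The windows of these 3 genes differed in what they held. The *Igfbp2* window had 1 palindromic CACGTG, read as ACGTG on both strands, and 3 GC boxes. The *Igfbp5* window had 0 matches to any of the 4 motifs. In the *Irs2* window, CACGTG began at base -44 from the start site and was followed by TGTTTTG, the reverse complement of CAAAACA, at base -37. Over all 32851 windows, 19.6% held ACGTG, 6.28% CAAAACA, 3.65% GTAAACA and 35.7% GGGCGG. RefSeq windows were found for 9 of the 10 members, 11 windows in all, and 0 of the 11 held GTAAACA. *Irs1* shared with *Irs2* a CACGTG (from base -115) that ran into TGTTTTG (from base -111). Motif matches are letters in a window and do not show binding.

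The libraries held 6699383 to 10762360 reads that fell on genes. Values are normalised counts, which are reads divided by the size factor of the library, and differences are on the log2(normalised count + 1) scale. The 4 age groups were fitted together with limma over the 11288 genes with a mean normalised count of 10 or more (7.6 to 13.3 reads, by library), and a gene was called a DEG at a Benjamini-Hochberg adjusted p-value of 0.05 or less with at least a 1.2-fold change. Of the 10 members, 7 passed this filter. Single members were also compared by a two-sided exact permutation test, which cannot go below p = 0.00794 with 5 libraries against 5. The 8 genes typical of corneal epithelium, keratins *Krt12* and *Krt5* and *Pax6* among them, were present in every group and 0 of 8 were called at any age.

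**Figure D1:**
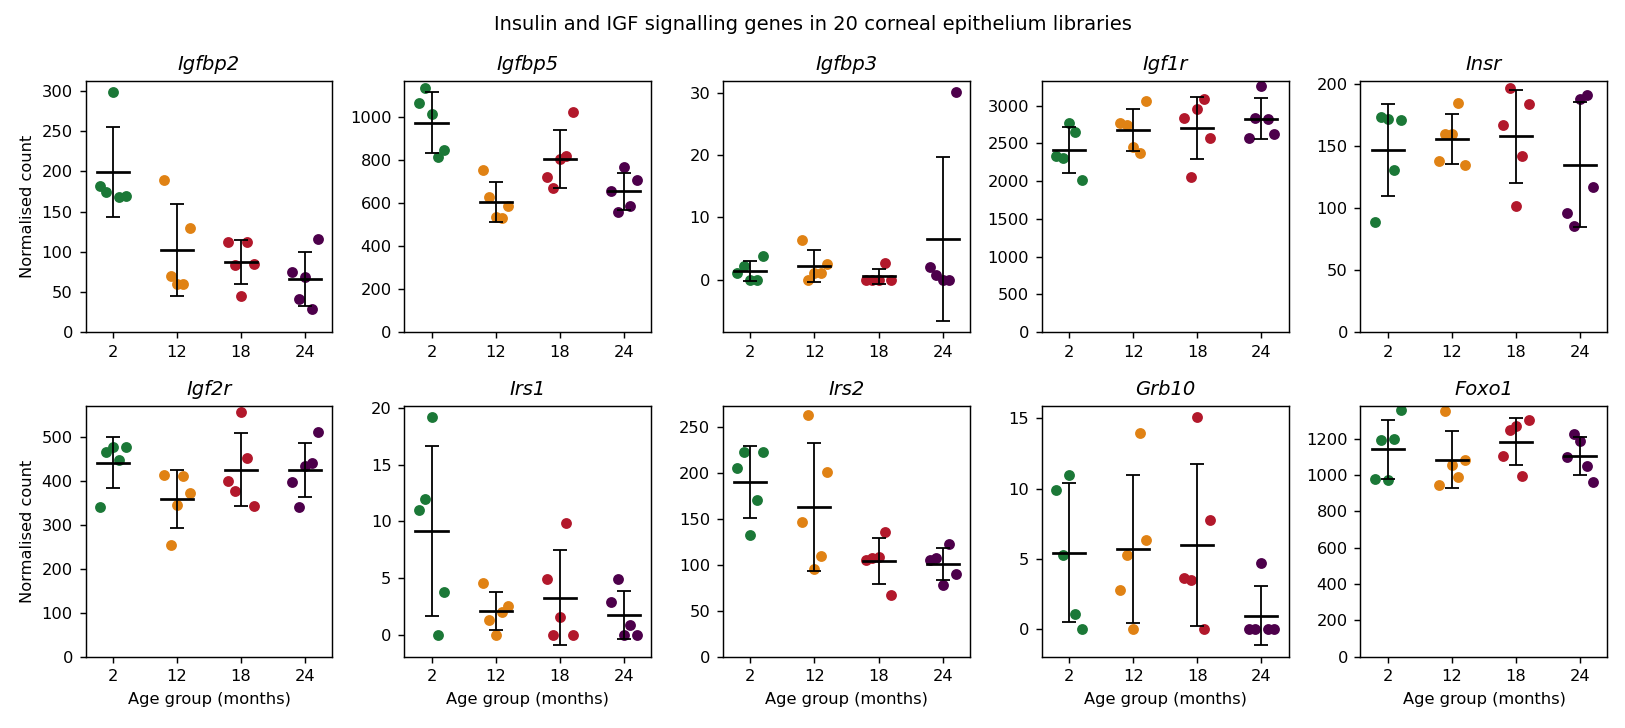
Normalised count (y axis, linear, each panel on its own scale) of the 10 members by age group in months (x axis). Each point is 1 library, the horizontal bar is the group mean and the whiskers are the SD over 5 libraries. The *Igfbp2* points of the 18-month and 24-month groups lie below all 5 young points, whereas the *Igf1r* and *Foxo1* groups overlap.

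Beginning with the secreted binding proteins, *Igfbp2* encodes insulin-like growth factor binding protein 2, which favours IGF-2 and in some cells also acts through integrins. In the young group its normalised counts were 182, 175, 299, 168 and 169, a mean of 199 ± 56.2 (SD, n = 5). The 12-month libraries gave 189, 69.7, 60.0, 60.1 and 130. The 18-month libraries gave 112, 83.3, 44.5, 112 and 85.1. The 12-month group was split: 3 libraries lay near 60 to 70 and replicate 1 lay within the young range, whereas no 18-month library reached the lowest young one. The 24-month libraries gave 75.1, 41.5, 68.1, 28.7 and 116, a mean of 65.8 ± 33.7, and the 24-month and young libraries did not overlap.

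In the 24-month vs. 2-month comparison, *Igfbp2* was lower by a log2 difference of -1.70 ± 0.353 (SE; 95% interval -2.42 to -0.97; adjusted p = 0.0123, limma). At 12 months the log2 difference was -1.08 (95% interval -1.80 to -0.36; adjusted p = 0.244, limma) and at 18 months it was -1.21 (95% interval -1.93 to -0.48; adjusted p = 0.175, limma). By group mean the order was 2-month, 12-month, 18-month, 24-month from high to low. The aged neighbours in that order did not differ beyond their spread: 18 vs. 12 months was -0.13 (95% interval -0.85 to 0.60) and 24 vs. 18 months was -0.49 (95% interval -1.21 to 0.23). With all 15 aged libraries set against the 5 young ones, 14 of 15 lay below every young library, and the log2 difference was -1.33 ± 0.296 (adjusted p = 0.0163, limma). Single libraries mattered for these calls. Without 24-month replicate 2 the adjusted p-value at 24 months was 0.0506 and without 24-month replicate 4 it was 0.0574. Without young replicate 3, the highest library, it was 0.0445 at 24 months, and 0.0896 for aged vs. young. With no filter on low expression, both calls were lost, with adjusted p-values of 0.119 at 24 months and 0.101 for aged vs. young.

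*Igfbp5* encodes the binding protein that associates with extracellular matrix. Its young libraries gave normalised counts of 1067, 1138, 1014, 815 and 846, a mean of 976 ± 140 (SD, n = 5). At 12 months the counts were 755, 631, 535, 530 and 586, with a mean of 607 ± 92.2, so that every 12-month library was below every young one. At 18 months they were 722, 669, 806, 820 and 1023 (mean 808 ± 135). These 18-month values overlapped the young range in 2 libraries and lay above the highest 12-month library in 3. At 24 months they were 658, 558, 769, 587 and 707 (mean 656 ± 86.4), again all below the young group.

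By group mean, *Igfbp5* did not descend steadily over the 4 ages. The log2 difference from young was -0.68 ± 0.138 at 12 months (adjusted p = 0.0128, limma), -0.28 ± 0.138 at 18 months (95% interval -0.56 to 0.01; adjusted p = 0.702, limma) and -0.57 ± 0.138 at 24 months (adjusted p = 0.0415, limma). The step from 12 to 18 months was +0.41 (95% interval 0.12 to 0.69; unadjusted p = 0.00638, adjusted p = 0.567, limma), and it did not pass. For aged vs. young, 13 of 15 libraries lay below every young one and the log2 difference was -0.51 ± 0.127 (adjusted p = 0.0409, limma). The 12-month call was lost without young replicate 2 (adjusted p = 0.0525).

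The 24-month call of *Igfbp5* was close to the threshold. It was lost without young replicate 1 (adjusted p = 0.103), 2 (0.138) or 3 (0.0876), and without 12-month replicate 2 (0.0518). It was also lost without 18-month replicate 1 (0.0514), 3 (0.0541) or 4 (0.0531), and without 24-month replicate 1 (0.0847), 2 (0.163) or 4 (0.138). The log2 difference stayed between -0.51 and -0.57 in these 10 fits. The aged vs. young call was lost without any of 12 libraries, with adjusted p-values of 0.0515 to 0.191: young replicates 1, 2, 3 and 5, 12-month replicates 2, 3 and 4, 18-month replicates 1 and 2, and 24-month replicates 1, 2 and 4. With no filter on low expression, the adjusted p-value of *Igfbp5* was 0.0592 at 12 months, 0.119 at 24 months and 0.122 for aged vs. young.

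*Igfbp3* encodes the main carrier of IGFs in serum. It was hardly counted here, with 0 to 4 reads in the young libraries, 0 to 7 at 12 months and 0 to 3 at 18 months. At 24 months, replicate 5 had 32 reads (a normalised count of 30.1) and the other 4 libraries had 2, 1, 0 and 0. The rise in the 24-month mean to 6.58 was therefore that of 1 animal. In the same library *Igfbp2* was at 116, the highest of its age, and the summed keratocyte markers described below were at 1338, also the highest of their age.

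Of the cell surface receptors, *Igf1r* encodes the tyrosine kinase receptor for IGF-1. Its young libraries gave 2333, 2302, 2763, 2649 and 2010 normalised counts (mean 2411 ± 300.0, SD, n = 5) and its 24-month libraries 2573, 2829, 3262, 2828 and 2622 (mean 2823 ± 272). The ranges overlapped, with 3 of 5 24-month libraries above the highest young one. The 12-month group ranged from 2377 to 3065 and the 18-month group from 2050 to 3085. Group means rose in the order of age, 2411, 2680, 2700 and 2823, but no neighbouring step was larger than its spread. At 24 months the log2 difference from young was 0.23 (95% interval -0.01 to 0.47; adjusted p = 0.514, limma). An increase of more than 0.47 on the log2 scale, or a decrease of more than 0.01, lay outside the interval.

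*Insr* encodes the insulin receptor. Its normalised counts were 88.8, 174, 172, 131 and 171 in the young group and 96.5, 85.4, 188, 191 and 117 at 24 months. Both groups spanned nearly the same range. The 12-month libraries ran from 135 to 185 and the 18-month libraries from 102 to 197. The log2 difference from young was 0.11 at 12 months (95% interval -0.39 to 0.62), 0.11 at 18 months (-0.40 to 0.62) and -0.16 at 24 months (-0.66 to 0.35). With 81 to 232 reads per library, *Insr* had a larger SE of the log2 difference (0.248) than *Igf1r* (0.116), and changes of either direction lay within its intervals.

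*Igf2r* encodes the cation-independent mannose-6-phosphate receptor, which takes up IGF-2 and sends it to the lysosome. The young libraries gave 339, 464, 476, 447 and 477 normalised counts, and replicate 1 stood below the other 4. At 12 months the libraries gave 413, 254, 344, 410 and 372, a mean of 358 ± 65.0 against 441 ± 58.2 in the young group. This 12-month group had the lowest mean of the 4 ages. Its log2 difference from young was -0.31 (95% interval -0.64 to 0.02; adjusted p = 0.568, limma). At 18 and 24 months the means were 425 and 424, and the log2 differences were both -0.06 (95% interval -0.39 to 0.27).

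Downstream of the receptors, *Irs2* encodes insulin receptor substrate 2, which docks phosphatidylinositol 3-kinase on the activated receptor. The young libraries gave normalised counts of 205, 223, 132, 170 and 222 (mean 190 ± 38.9, SD, n = 5) and the 12-month libraries 146, 263, 95.4, 109 and 201 (mean 163 ± 69.3). The 12-month group was the most spread of the 4 and included the highest library of all 20. The 18-month libraries gave 105, 107, 108, 136 and 66.7 (mean 104 ± 24.7) and the 24-month libraries 105, 107, 78.5, 123 and 89.4 (mean 101 ± 17.1). The highest 24-month library, at 123, lay below the lowest young one, at 132.

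For *Irs2* the log2 difference from young was -0.30 at 12 months (95% interval -0.82 to 0.23; adjusted p = 0.791, limma), -0.87 at 18 months (95% interval -1.39 to -0.34; adjusted p = 0.183, limma) and -0.90 ± 0.255 (SE) at 24 months (95% interval -1.43 to -0.38; unadjusted p = 0.00147, adjusted p = 0.111, limma). The exact permutation p-value at 24 months was 0.00794, the smallest that this design can give. The 18- and 24-month groups differed by -0.03 (95% interval -0.56 to 0.49). Thus *Irs2* did not pass the threshold over all genes tested at any age. Exons of an annotated transcript on the opposite strand, *9530052E02Rik*, overlap those of *Irs2*, and it had 13 reads in all, over 3 libraries. Exons on the opposite strand also overlap those of *Irs1* (*Gm9747*) and *Foxo1* (*Gm20402*), for which no reads were analysed here. The strand setting of the counting is not given in the sources used here, so reads of *Irs1*, *Irs2* and *Foxo1* and of these partners cannot be told apart.

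*Irs1* encodes the related substrate. It had 10, 16, 21, 0 and 4 reads in the young libraries. At 12 months it had 5, 1, 0, 2 and 2 reads, at 18 months 4, 0, 2, 11 and 0, and at 24 months 3, 6, 0, 1 and 0. The mean normalised count was 9.19 ± 7.49 in the young group and 2.09 ± 1.69, 3.26 ± 4.19 and 1.73 ± 2.13 at the later ages. The groups overlapped at every age, since young replicate 4 had 0 reads. For aged vs. young the exact permutation test gave p = 0.0465 before any adjustment, and in the fit without a filter the adjusted p-value was 0.849. At this depth a change of *Irs1* could not be told from its spread.

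*Grb10* encodes an adaptor that binds both receptors and dampens their signal. The young libraries had 9, 7, 12, 1 and 0 reads, and the mean normalised counts were 5.43, 5.68 and 6.00 in the 2-, 12- and 18-month groups. At 24 months only replicate 3 had reads, 5 of them, and the mean was 0.946 ± 2.12. In the fit without a filter the log2 difference at 24 months was -1.64 (95% interval -3.51 to 0.23; adjusted p = 0.922), and the exact permutation p-value was 0.0873. The other 4 libraries at 24 months had 0 reads, which allows up to 3 reads each by counting error alone.

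*Foxo1* encodes the transcription factor that AKT holds in check. The young libraries gave 980, 1191, 975, 1201 and 1360 normalised counts (mean 1141 ± 164, SD, n = 5) and the 24-month libraries 1100, 1226, 1186, 1049 and 962 (mean 1105 ± 106). The ranges overlapped at all ages, with means of 1084 and 1184 at 12 and 18 months. The log2 difference from young was -0.07, 0.06 and -0.04 at 12, 18 and 24 months, and the 24-month interval was -0.29 to 0.21. A change of *Foxo1* larger than 0.29 on the log2 scale in either direction was outside that interval.

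**Figure D2:**
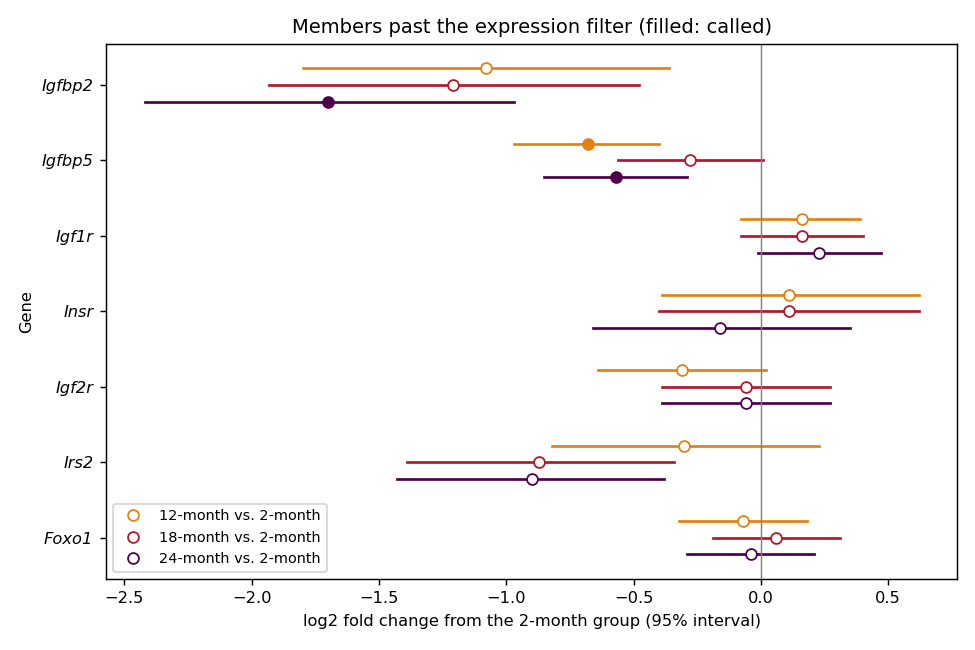
Log2 fold change from the young group (x axis) for the 7 members past the expression filter (y axis), with 95% intervals from limma, by age group. Filled points mark calls: *Igfbp2* at 24 months, and *Igfbp5* at 12 and 24 months.

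Counted over the set, 1 of the 7 tested members was called at 12 months (*Igfbp5*), 0 at 18 months and 2 at 24 months (*Igfbp2* and *Igfbp5*), all lower. The corresponding shares of all 11288 tested genes, in either direction, were 0.532%, 0.673% and 0.78%. For aged vs. young, 2 of 7 members were called, both lower, against 1.01% of all genes. At 18 months 2 of the 7 had an unadjusted p-value below 0.05 (limma), beside 811 of all 11288 tested genes. With voom on the recovered reads the count of members called at 18 months was also 0. The median log2 difference of the tested members was -0.30, -0.06 and -0.16 at 12, 18 and 24 months, beside -0.01, 0.00 and 0.01 over all tested genes. Between aged groups, 0 members were called in any comparison with limma or voom. The background there was 0.00886% for 18 vs. 12 months, 0.195% for 24 vs. 12 months and 0.0% for 24 vs. 18 months. In these 3 comparisons 2, 1 and 1 of the 7 members had an unadjusted p-value below 0.05 (limma), beside 839, 1661 and 599 of all 11288 tested genes.

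By the ranges of the libraries alone, 1 member lay wholly below the young group at 12 months (*Igfbp5*), 1 at 18 months (*Igfbp2*) and 3 at 24 months (*Igfbp2*, *Igfbp5* and *Irs2*). Of all tested genes, 1.06%, 1.01% and 1.55% did so. The comparisons with the young group share its 5 libraries and are not independent of each other.

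A scrape of the corneal surface can carry other cells along, and some markers of 2 neighbouring tissues fell with age beside the binding protein genes. The summed normalised count of 12 genes typical of stromal keratocytes, the fibroblasts beneath the epithelium, ran from 2312 to 5771 in the young group. It ran from 962 to 1976 at 12 months, from 973 to 1755 at 18 months and from 650 to 1338 at 24 months. None of the 12 was at 0 in any group, and of the 11 tested, 4, 5 and 7 were called lower at 12, 18 and 24 months. For 6 genes of the conjunctiva the sum was 43090 to 64314 in the young group and 37722 to 44429 at 24 months. At 12 and 18 months it was 37407 to 58149 and 41708 to 53949, and each aged range overlapped the young one. Of 5 tested genes, 2, 2 and 1 were called lower, the keratin gene *Krt4* at each age and *Krt19* at 12 and 18 months. *Muc5ac* was at 0 in the 12-month group. For 8 immune cell genes the sum was 341 to 493 in the young group and 232 to 336 at 24 months, with 0 of 6 tested genes called and *Cd3e* at 0 in the 12- and 24-month groups. The sum over the 8 corneal epithelial genes was 385158 to 493452 in the young group and 420096 to 458792 at 24 months. In bulk tissue, fewer cells of a type and less RNA per cell cannot be told apart.

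Within ages, the order of the libraries by keratocyte sum was set beside their order by *Igfbp2*. At 12 months, the 2 highest libraries for *Igfbp2*, replicates 1 and 5, also had the 2 highest keratocyte sums, 1976 and 1388. At 24 months, replicate 5 was the highest in both, but replicate 4 had the lowest *Igfbp2*, 28.7, with the second highest sum, 750. At 18 months replicate 3 was the lowest in both (44.5 and 973). However, replicate 2 of that age had the highest sum, 1755, and 83.3 normalised counts of *Igfbp2*, the second lowest. In the young group replicate 4 was the lowest in both, with a sum of 2312 against 4455 to 5771 in the other 4 libraries. Its 168 normalised counts of *Igfbp2* lay next to 169 in replicate 5. *Igfbp5* did not follow the sum at 18 months, when the group lay between 669 and 1023 with keratocyte sums of 973 to 1755. In the young group replicate 2 was the highest in both (1138 and 5771) and replicate 4 the lowest in both (815 and 2312). At 12 months replicate 1 was the highest in both (755 and 1976) and replicate 4 the lowest in both (530 and 962). At 24 months replicate 2 was the lowest in both, whereas the highest were replicate 3 for *Igfbp5* and replicate 5 for the sum. The part of these cells in the results for *Igfbp2*, *Igfbp5* and *Irs2* was not tested.

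**Figure D3:**
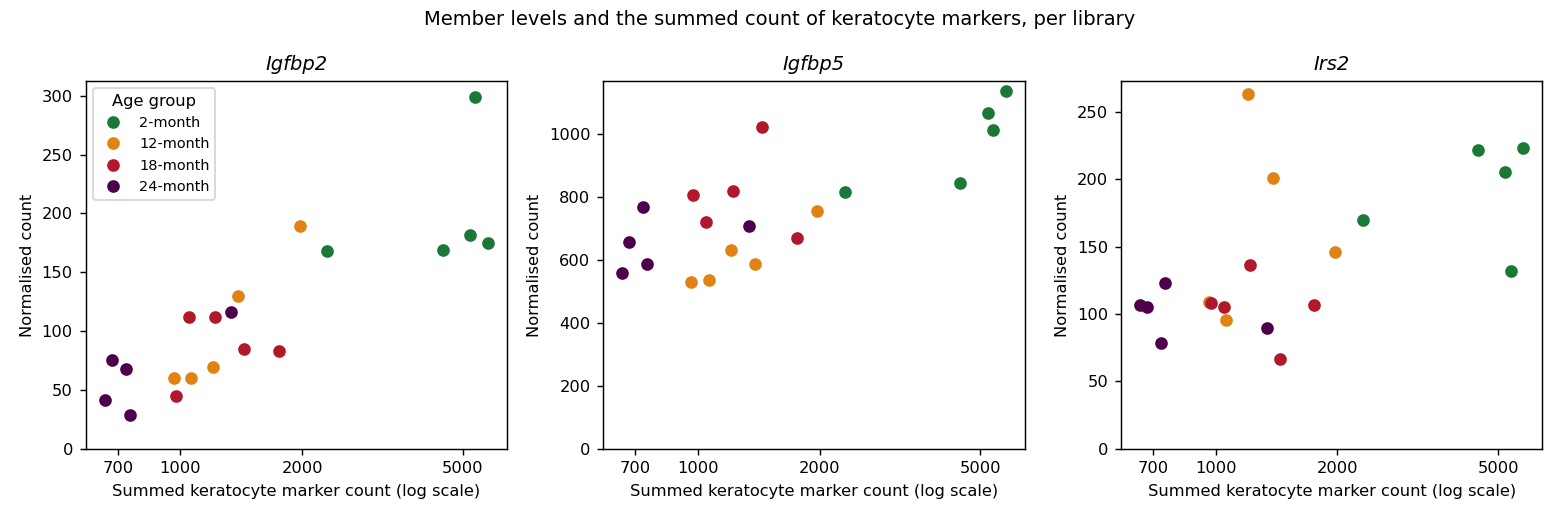
Normalised count of *Igfbp2*, *Igfbp5* and *Irs2* (y axes, linear) against the summed normalised count of 12 keratocyte marker genes (x axis, log scale), 1 point per library, coloured by age group. The young libraries, with sums of 2312 to 5771, lie to the right of all 15 aged libraries, with sums of 650 to 1976.

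The genes whose log2 levels ran most like *Igfbp2* over the 20 libraries were *Dcn*, *Col3a1* and *Krt4*, with Pearson r of 0.85, 0.84 and 0.83. *Dcn* encodes the matrix proteoglycan decorin and *Col3a1* a fibrillar collagen, and both belong to the keratocyte list; *Krt4* encodes a keratin of the conjunctiva. After each age mean was removed, the values were 0.65, 0.65 and 0.56. Those most like *Igfbp5* were *Zeb2*, a transcriptional repressor, *Nt5e*, the ecto-enzyme CD73, and *Lpp*, a protein of cell adhesions, with r of 0.82, 0.81 and 0.79, and 0.73, 0.39 and 0.65 with age means removed. These 20 points share library preparation and the age groups, and the values are given as a description.

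Around the 10 members, 79 further genes of the pathway were listed by role, of which 59 passed the expression filter. Of these 59, 0 were called at 12 months, 1 at 18 months and 1 at 24 months, in each case *Ide*, and 0 for aged vs. young. Their median log2 difference was 0.03, 0.05 and 0.05 at the 3 ages. At an unadjusted p-value below 0.05 there were 11, 6 and 10 of the 59 at 12, 18 and 24 months and 8 for aged vs. young, beside 1079, 811, 1125 and 891 of all 11288 tested genes. With voom the 12-month count was also 0.

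Among the ligands, *Ins1* and *Ins2*, which encode insulin and were looked up after the values were seen, had 0 reads in all 20 libraries. *Igf1*, encoding the main ligand of *Igf1r*, gave 30.7, 18.7, 6.39, 11.7 and 16.1 normalised counts in the young group and 2.93, 1.63, 11.4, 6.09 and 0 at 24 months. The groups overlapped, and the log2 difference was -2.02 (95% interval -3.58 to -0.46; adjusted p = 0.322, limma). *Igf1* passed the filter of 10 only through the young group. Its mean was 10.3 over the 20 libraries, and 16.7, 9.94, 9.96 and 4.4 at 2, 12, 18 and 24 months. Its difference and interval are therefore given as a description. *Igf2* had means of 82.0, 119, 69.3 and 62.8 at 2, 12, 18 and 24 months, with a log2 difference at 24 months of -0.43 (95% interval -1.04 to 0.19; adjusted p = 0.680, limma). Neither ligand passed the test.

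Of the other binding proteins, 2 of 5 were tested. *Igfbp4*, whose product mostly inhibits IGF action, gave 110, 137, 146, 42.4 and 144 normalised counts in the young group and 58.5, 26.8, 66.2, 42.6 and 88.5 at 24 months. All but young replicate 4 lay above the highest 24-month library. That replicate also had the lowest keratocyte sum of its age. The log2 difference was -1.01 (95% interval -1.74 to -0.27; adjusted p = 0.266, limma). *Igfbp7*, a related secreted protein with low affinity for IGFs, differed by -0.29 (95% interval -1.18 to 0.60; adjusted p = 0.880, limma).

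*Ide*, encoding the metalloprotease that degrades insulin, was the only gene of the 59 called against the young group. With no filter on low expression, its 18-month call was lost. Its young libraries gave 365, 717, 324, 380 and 422 normalised counts, the 12-month libraries 673, 383, 486, 382 and 353, the 18-month libraries 839, 664, 1007, 948 and 851 and the 24-month libraries 760, 832, 841, 935 and 910. The 2 older groups thus stood apart from the 2 younger ones, except that young replicate 2 and 12-month replicate 1 exceeded the lowest 18-month library. The source of each animal is not given, and its part in the *Ide* values was not tested. At 24 months the log2 difference was 1.01 ± 0.183 (SE; adjusted p = 0.0026, limma), with no overlap with the young group. *Stc1*, encoding stanniocalcin 1, an inhibitor of the protease that cleaves *Igfbp4* protein, differed by -1.63 (95% interval -3.31 to 0.04; adjusted p = 0.512, limma).

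Among the 8 tested adaptors and substrates other than the members, 7 had a positive difference at 24 months and 0 were called. Of all 11288 tested genes, 5726 had a positive difference at that age. At an unadjusted p-value below 0.05 there were 4 of 8, *Sh2b1*, *Shc1*, *Grb2* and *Grb7*, beside 1125 of all 11288 tested genes; *Grb2* and *Grb7* were named after their values were seen. *Sh2b1*, an adaptor that strengthens receptor signalling, gave 155, 123, 102, 105 and 154 normalised counts in the young group and 176, 198, 191, 169 and 175 at 24 months. The groups did not overlap, and the log2 difference was 0.53 (95% interval 0.11 to 0.94; adjusted p = 0.340, limma). *Shc1*, which links receptors to the MAPK cascade, differed by 0.51 (95% interval 0.05 to 0.96; adjusted p = 0.427, limma). Among 7 tested brakes, *Socs2*, a feedback inhibitor of cytokine and growth hormone signals, gave 38.4, 52.5, 49.3, 32.8 and 52.2 normalised counts in the young group and 1.22, 17.6, 14.3, 27.8 and 25.1 at 18 months, all below the young libraries. Its log2 difference from young was -1.53 at 12 months (95% interval -2.75 to -0.30; adjusted p = 0.363, limma), -1.73 at 18 months (-2.96 to -0.50; adjusted p = 0.354) and -1.03 at 24 months (-2.26 to 0.19; adjusted p = 0.592), and it was not called at any age.

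The kinase arms held 6 tested genes of phosphatidylinositol 3-kinase, 8 of the AKT arm, 12 of the mTOR arm and 8 of the MAPK arm. At 24 months 0 were called (limma). At an unadjusted p-value below 0.05 there were 1, 1, 1 and 0, beside 1125 of all 11288 tested genes. For phosphatidylinositol 3-kinase, *Pik3r3*, a regulatory subunit, differed at 24 months by 0.35 (95% interval 0.00 to 0.70; adjusted p = 0.495, limma) and *Pik3ca*, the catalytic subunit alpha, by -0.21 (-0.57 to 0.15). In the AKT arm, *Akt2*, the AKT kinase most tied to glucose uptake, gave 379, 199, 311, 320 and 316 normalised counts in the young group and 456, 427, 662, 406 and 328 at 24 months. The 24-month libraries were above the highest young one in 4 of 5, and the log2 difference was 0.57 (95% interval 0.20 to 0.94; adjusted p = 0.188, limma). *Akt1* differed by 0.30 (95% interval -0.08 to 0.68). In the mTOR arm *Eif4ebp2*, a repressor of translation, differed by 0.83 (95% interval 0.08 to 1.58; adjusted p = 0.438, limma) and *Rictor*, a subunit of mTOR complex 2, by 0.21 (-0.08 to 0.51).

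The transcription factors and targets at the end of the cascade showed 0 calls at 24 months. Of the other FoxO factors, *Foxo4* differed at 24 months by -0.24 (95% interval -0.72 to 0.25) and *Foxo6* by -0.17 (-1.53 to 1.18). The glucose carrier gene *Slc2a1* differed by 0.31 (95% interval -0.13 to 0.75). Of 20 genes known as FoxO targets in other tissues, 15 were tested and 0 were called at 12, 18 or 24 months or for aged vs. young with limma. At an unadjusted p-value below 0.05 there were 2, 0, 1 and 2 of 15, beside 1079, 811, 1125 and 891 of all 11288 tested genes. *Gadd45a*, a growth arrest gene, differed at 24 months by -0.44 (95% interval -0.81 to -0.07; adjusted p = 0.377, limma). *Cdkn1b*, encoding the cell cycle inhibitor p27, differed by 0.26 (95% interval -0.02 to 0.54; adjusted p = 0.540, limma). The median over the 15 targets was -0.10, 0.12 and 0.13 at 12, 18 and 24 months.

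**Figure D4:**
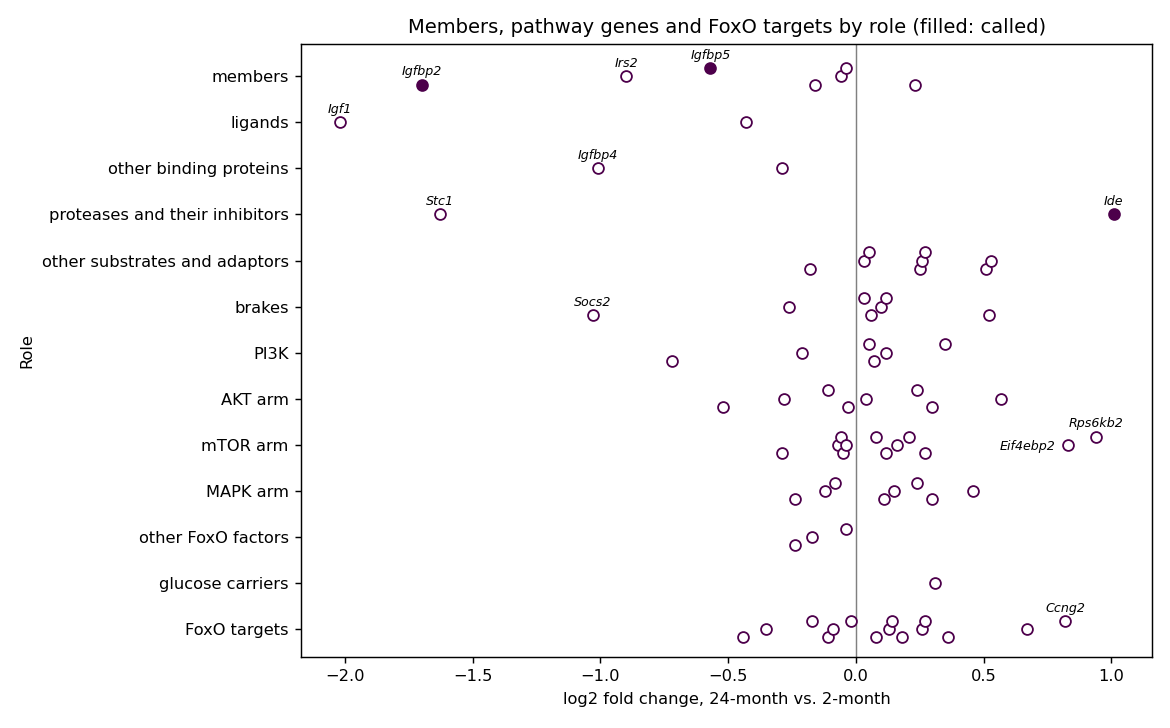
Log2 fold change at 24 months from the young group (x axis) for the 7 tested members, the 59 tested pathway genes and the 15 tested FoxO targets, grouped by role (y axis). Each point is 1 gene and filled points are calls: *Igfbp2* and *Igfbp5* lower and *Ide* higher.

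*Igf2bp1* encodes an RNA-binding protein of fetal tissues that regulates translation of *Igf2* mRNA, and it was chosen after its values were seen. Its young libraries gave 24.1, 33.7, 15.5, 17 and 28.5 normalised counts, 130 reads in all. The 12-month libraries had 5 reads together, and the 18-month and 24-month libraries had 0. With 3 reads per library as the limit that a count of 0 allows, *Igf2bp1* was at least 7.84-fold lower at 18 months and at least 8.71-fold lower at 24 months. Its mean over the 20 libraries was under the filter of the main test, and in the fit without a filter its adjusted p-value was 0.000183 at 12 months and 1.79e-05 at both 18 and 24 months (limma).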

How the data were processed

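The per-library values are log2 values as deposited: per the study's methods the authors used cutadapt for trimming, STAR for alignment to GRCm38 and HTSeq for gene counts, which were divided by DESeq2 size factors (relative log expression) before 1 was added and the logarithm taken. Tool versions and the strand setting of the counting are not given in the sources used here. The columns of the authors' own comparisons (mean signal, fold changes, p-values) were not used. The libraries were primed with oligo-dT, so that reads come from the 3′ ends of transcripts and a gene's count depends on few sites.

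Each value was turned back into reads with the size factor of its library (0.7603 to 1.3343), and 100% of values were whole within 0.001 reads. The log2 values, with a pseudocount of 1, were fitted with R 4.3.3 and limma 3.58.1 (variance trend) for 20 libraries and 11288 genes, with Benjamini-Hochberg adjustment over all of them; aged vs. young was a separate fit of 15 against 5. Tables and plots used Python, numpy, pandas and matplotlib, and positions came from GENCODE vM21 and RefSeq. The fit was checked on simulated counts, with the same setting of spread for all genes and changes larger than those of *Igfbp5*. That spread was a fixed value, not fitted to these libraries. Genes as variable as *Igfbp2* and calls near the threshold are not covered by that check. Libraries of the same age differed by more than counting error (chi-square per degree of freedom 11.34 to 107.21 over 40 pairs), and intervals for counts of 0 cover counting error only.

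The members and the lists were chosen with earlier results of these data known. The text names the 10 members, pathway genes and FoxO targets that were called against the young group, the 2 genes with the smallest unadjusted p-value at 24 months in each role, and the 3 genes most correlated with each called member. A few genes that this rule takes are not reported here. *Igf2bp1*, *Ins1*, *Ins2*, *Grb2*, *Grb7* and marker genes were named outside that rule. Alternatives were quantile normalization, no filter, a mean count of at least 50, a replicate block, a fit of just the pair of ages, no or a 1.5-fold threshold, voom on the recovered reads, pseudocounts of 0.1 and 10, and each library left out.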

Additional observations from a re-analysis of the deposited data

Results flagged for a closer look

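In 40 sets of 5 libraries (10 members at 4 ages), 5 had 1 library far from the other 4 by Dixon's test at the 95% level, which chance gives in about 1 of 20 sets. Young replicate 3 had 299 normalised counts of *Igfbp2*, against 182 in the next library. Young replicate 1 had 339 normalised counts of *Igf2r*, against 447 in the next lowest. For the low genes the gap was a matter of few reads, except in 1 library: *Igfbp3* was at 30.1 (32 reads) in 24-month replicate 5, against 1.95 in the next. *Igfbp3* was at 2.69 in 18-month replicate 4 and *Grb10* at 4.73 in 24-month replicate 3, with 0 in the other 4 libraries of each group.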

How the results depend on the processing

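The counts of called members moved with the settings because *Igfbp2* and *Igfbp5* lie near the threshold. Without a filter on low expression, 0 members were called at 12 months, 0 at 24 months and 0 for aged vs. young, and with more genes tested the adjusted p-value of *Igfbp2* at 24 months was 0.119. In that setting *Igf2bp1* entered the test, and the count of called pathway genes was 1 at 12 months and 2 at 24 months. With only the 2 groups compared, the count of members called was 0 at 12 months, 1 at 18 months (*Igfbp2*, adjusted p = 0.045) and 1 at 24 months. A 1.5-fold threshold left 1 member at 24 months and 1 for aged vs. young, and a pseudocount of 0.1 left 1 for aged vs. young. With the replicate number as a replicate block, 1 member was called at 24 months, 1 at 12 months, 0 at 18 months and 1 for aged vs. young; the cause of the change was not tested. The numbers are only names here: the deviations of same-numbered libraries from their age means had a median correlation of 0.00775 over 30 pairs (3 of them over 0.1), against 0.00352 over 120 other pairs.

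With 1 library left out, the members called ranged from 0 to 1 at 12 months, 0 to 2 at 24 months and 0 to 2 for aged vs. young, and stayed at 0 at 18 months and between aged groups. Signs changed only in differences near 0, with 1 library left out: *Foxo1* at 24 months ranged from -0.09 to 0.03 (above 0 also at 0.01), *Igf2r* from -0.16 to 0.01 at 18 months and from -0.15 to 0.02 at 24 months, and *Insr* from -0.06 to 0.18 at 12 months and from -0.06 to 0.26 at 18 months. *Irs2* at 24 months was not called under any of the 10 other settings (adjusted p 0.0681 to 0.25). Depth limits *Irs1*, *Grb10* and *Igfbp3*, at 0 to 32 reads per library.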
